A study of Mus musculus with 3 samples.

Results

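CD8 T cells of the group labelled Villin-HA + CL4-TCR were compared with those of the group labelled CL4-TCR, over all 45101 probe sets of a mouse Affymetrix-type array. These are 2 of the 3 arrays of the series. The CL4-TCR group carries a T cell receptor transgene specific for HA, the hemagglutinin that influenza virus carries on its surface. The labels give the Villin-HA + CL4-TCR group a T cell receptor of the same specificity, together with HA under the name of villin, a gene whose promoter is active in gut epithelial cells. Both groups therefore share the receptor, and the named difference is the antigen. The remaining array of the series, VILLIN-HA/CL4-TCR, enters the signal floor, the choice of a gene's probe set and the signals of a few genes of other tissues given at the end. All samples are labelled as coming from the MLN, the mesenteric lymph node, and 6 µg of total RNA went into each labelling. The labels do not say what the plus sign stands for, whether cells were transferred, how many animals were pooled, the age of the mice or how the CD8 T cells were sorted. Each group is 1 array, so every difference given here is between those arrays, with no replicate and no test. Where a pair of signals is given, CL4-TCR comes first and Villin-HA + CL4-TCR second, and higher and lower always describe Villin-HA + CL4-TCR relative to CL4-TCR.

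A CD8 T cell that meets its antigen leaves the resting state, divides, and switches from the genes of a naive cell, which keep it circulating through lymph nodes, to genes for killing, cytokines and tissue entry. Continued contact with antigen also brings inhibitory receptors, which dampen the response. In the gut-draining lymph node, cells may meet antigen carried from the epithelium, and there both effector and suppressive states are known to form.

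Signals are on the linear scale of the deposited values, scaled so that the trimmed mean of each array is 150. Values under a floor of 31.7, which is the median over the 3 arrays together, were replaced by that floor. A gene was represented by its probe set of highest mean signal and counted as measured if either array had it above the floor. It was called higher or lower from 2-fold upward (a log2 difference of 1). A fold written as "at least" has its lower value at the floor. Of 12196 measured genes, 1454 (11.9%) were called higher and 1162 (9.53%) lower, 21.4% in all. The median log2 difference was 0.06, the lowest 5% of genes lay below -1.31, and the highest 5% lay above 1.61. The count of calls in each direction depended on scaling: 55.6% of calls were higher as deposited and 38.2% with both arrays scaled to the same median signal, which moved the median of all genes by -0.19. The Gapdh control probe sets had a ratio of 3′ to 5′ signal of 18.4 with CL4-TCR and 3.35 with Villin-HA + CL4-TCR, while those of Actb had 1.98 and 1.80. The probe sets of the controls BioB, BioC, BioD and Cre, which match no mouse gene, were all higher with Villin-HA + CL4-TCR. Their log2 differences ran from 0.21 to 0.65. What this shift contributes to list medians of that size was not tested. Where probe sets of 1 gene lay above the floor on both arrays, their log2 differences had a pooled SD of 0.65 over 4181 genes. That SD is the only measure of error here. It is taken within the same pair of arrays, each labelled once, so it covers neither labelling nor animals. Raising the floor to 199.1, the 80th percentile of all values, left 6284 measured genes, of which 474 were higher and 538 lower. Counts under this higher floor are given beside many of the lists, and these totals (16.1% called in all) are their background. The background of list counts at the floor of 31.7 is 11.9% higher and 9.53% lower.

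**Figure D1:**
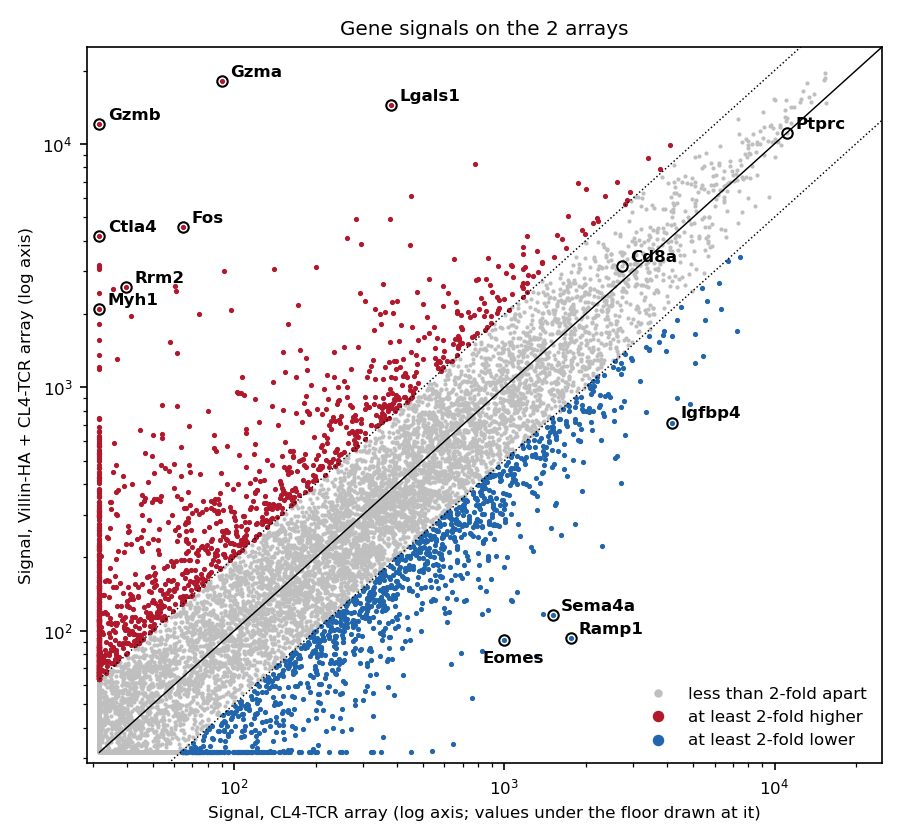
Signal of each measured gene on the CL4-TCR array (x axis) against the Villin-HA + CL4-TCR array (y axis), log axes in deposited signal units with values below 31.7 drawn at the floor. Coloured points are the 1454 genes called higher and the 1162 called lower at 2-fold, and the labelled genes lie far from the diagonal except Cd8a and Ptprc.

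The labelled cell type was borne out on both arrays. Cd8a, the alpha chain of the CD8 coreceptor, had signals of 2714 and 3149.3, though the log2 differences of its probe sets ran from -0.01 to 2.01. Cd3d, a signalling chain of the T cell receptor complex, had 2379.7 and 3419.5. None of the 10 measured CD8 T cell identity genes was called, and their median log2 difference was -0.10. The lowest were Cd2, an adhesion receptor, at -0.88, and Cd5, a brake on receptor signalling, at -0.84, and both passed 2-fold lower when the arrays were scaled to the same median.

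Promoter motifs are shown first, because they belong to gene groups in which most members were higher. Promoter sequences are those of RefSeq on GRCm38.p6, and each motif was searched on both strands in the 250 bases before the start site of 27025 genes. The first is the interferon-stimulated response element, written GAAA, any 2 bases and GAAA, which is in capitals in 60-base windows of type I interferon-induced genes. Ifit3 and Ifit1 belong to one family of antiviral RNA-binding proteins, Ifitm2 is a membrane protein that blocks virus entry, and Rsad2 is the antiviral enzyme viperin.
Ifit3: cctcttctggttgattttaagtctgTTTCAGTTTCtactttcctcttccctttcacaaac
Ifit1: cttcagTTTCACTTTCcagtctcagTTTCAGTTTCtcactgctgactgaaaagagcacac
Ifitm2: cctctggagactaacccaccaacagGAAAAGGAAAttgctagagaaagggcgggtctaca
Rsad2: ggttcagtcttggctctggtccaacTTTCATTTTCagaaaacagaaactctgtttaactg
The windows lie at chr19:34583382-34583441 on the plus strand (Ifit3), chr19:34640779-34640838 on the plus strand (Ifit1), chr7:140955973-140956032 on the minus strand (Ifitm2) and chr12:26456538-26456597 on the minus strand (Rsad2). This motif was in a promoter of 9 of 23 matched genes of the list (39.1%), against 3.46% of all 27025 genes. A gene with several promoters was counted once, here and below. Of the matched genes, it was in 5 of the 12 called higher and in 4 of the 11 not called.

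The cell cycle homology region, written TTTGAA, is a short element known from genes of mitosis, and it is in capitals below. Mki67 encodes the proliferation antigen Ki-67, Ccnb2 a mitotic cyclin, Cdca5 the cohesion factor sororin and Top2a the topoisomerase that untangles replicated DNA.
Mki67: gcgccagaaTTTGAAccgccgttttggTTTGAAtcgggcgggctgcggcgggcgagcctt
Ccnb2: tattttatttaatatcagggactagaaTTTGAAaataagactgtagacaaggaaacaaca
Cdca5: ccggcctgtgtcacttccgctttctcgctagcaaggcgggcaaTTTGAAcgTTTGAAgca
Top2a: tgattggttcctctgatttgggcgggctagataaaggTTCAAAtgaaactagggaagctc
These windows lie at chr7:135716445-135716504 (Mki67, minus strand), chr9:70421689-70421748 (Ccnb2, minus strand), chr19:6085037-6085096 (Cdca5, plus strand) and chr11:99024190-99024249 (Top2a, minus strand). TTTGAA was in a promoter of 16 of 39 matched mitosis genes (41.0%), against 18.3% of all genes. CCAAT, the box bound by NF-Y, was in 29 of the same 39 (74.4%), against 37.5% of all.

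The E2F motif, written TTTNNCGC, belongs to genes of DNA replication and is in capitals in the last set. Cdc6 loads the replicative helicase, Mcm6 is one of its subunits, and Uhrf1 reads hemimethylated DNA at the fork.
Cdc6: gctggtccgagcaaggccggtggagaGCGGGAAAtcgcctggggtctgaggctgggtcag
Mcm6: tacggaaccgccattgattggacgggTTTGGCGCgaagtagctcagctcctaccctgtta
Uhrf1: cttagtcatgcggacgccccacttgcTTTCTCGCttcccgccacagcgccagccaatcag
They lie at chr11:98907987-98908046 (Cdc6, plus strand), chr1:128359719-128359778 (Mcm6, minus strand) and chr17:56303255-56303314 (Uhrf1, plus strand). The motif was in a promoter of 9 of 31 matched replication genes (29.0%) and of 4.94% of all genes. A match describes the letters of a window and does not show that a factor binds there.

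Proliferation genes had the highest median of the lists of T cell and housekeeping roles. Of 48 measured genes of mitosis, 45 were called higher and none was called lower, and the median log2 difference was 2.97. The background share of genes called higher was 11.9%. Mki67 had signals of 22.8 and 3191.2, at least 101-fold higher. Ccnb2 had 26.3 and 1357.3, at least 42.8-fold higher. Cdca5 had 36.9 and 1302, a 35.3-fold difference, and its probe sets gave log2 differences of 3.54 and 5.14. Top2a had 57.6 and 1531.5, a 26.6-fold difference. These genes were near or below the floor in CL4-TCR, so several folds are lower bounds. With the higher floor, 22 of 42 measured mitosis genes were called higher, and the median was 1.30. The mitosis genes not called were Racgap1 (log2 difference 0.20) and Kif23 (0.02), which act together at the midzone of the dividing cell, and the condensin subunit Smc4 (-0.30), whose signals were 4931.3 and 3995.

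In DNA replication and nucleotide synthesis, 31 of 37 measured genes were higher, none was lower, and the median was 2.02. With the higher floor, 22 of 33 were higher and the median was 1.22. Rrm2, a subunit of the reductase that makes deoxynucleotides, had signals of 39.8 and 2577.6, a 64.8-fold difference, and its 3 probe sets all lay above a log2 difference of 4. Pclaf, which binds the sliding clamp PCNA, had 91.4 and 3006.8, a 32.9-fold difference, though its other probe set gave a log2 difference of 0.27. Cdc6 had 12.9 and 626.8, at least 19.8-fold higher, and Tk1, the thymidine kinase of S phase, had 7.5 and 499.4, at least 15.8-fold higher. The 6 members of the Mcm2 to Mcm7 helicase were all higher, with log2 differences from 1.10 (Mcm7) to 2.54 (Mcm6). The licensing factor Cdt1 (0.08) and the polymerase subunits Pole2 (-0.03) and Pold1 (-0.18) stayed inside 2-fold.

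Among cyclins, E2F factors and inhibitors of cyclin-dependent kinases, 12 of 24 were higher and none lower, and the list median was 0.91. Under the floor of 199.1, 2 of 14 were higher and the median was 0.21. The E2F factors called were E2f1 (log2 difference at least 2.53), E2f2 (2.61), E2f7 (at least 1.81) and E2f8 (at least 2.35), and the E-type cyclins Ccne1 (1.66) and Ccne2 (at least 1.93), which drive entry into S phase, were also higher. Cdkn3, a phosphatase of cyclin-dependent kinases, had signals of 13 and 264.6, at least 8.35-fold higher. Of the D-type cyclins, none was called. Ccnd2, which links growth signals to the cycle, had 3569.3 and 2006.9, a log2 difference of -0.83, while Ccnd3 had 0.06 and Ccnd1 0.59. The inhibitors of the cycle did not share a direction. Cdkn2c, or p18, had 51.5 and 154.6, 3.00-fold higher, and Cdkn1a, or p21, had 24.9 and 66.9, at least 2.11-fold higher, its other probe set lying at 0.57. Cdkn1b, or p27, had -0.65, with both of its probe sets below 0, and Cdkn2d, or p19, had -0.43. Of 21 genes of DNA repair and the p53 response, 9 were higher and none lower. They were led by the checkpoint kinase Chek1 (signals of 4.5 and 544.8, at least 17.2-fold), Rad51ap1 (10.2-fold), Brca1 (9.75-fold) and Rad54l (at least 9.67-fold), which act in homologous recombination. At the higher floor, 1 of 12 was called higher, a share near that of all genes there (474 of 6284). Brca1 (0.76), Rad51ap1 (0.92) and Rad54l (0.62) were not called at that floor. The p53 regulator Mdm2 (-0.54) and the p53 target Bbc3 (-0.62) were not called.

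**Figure D2:**
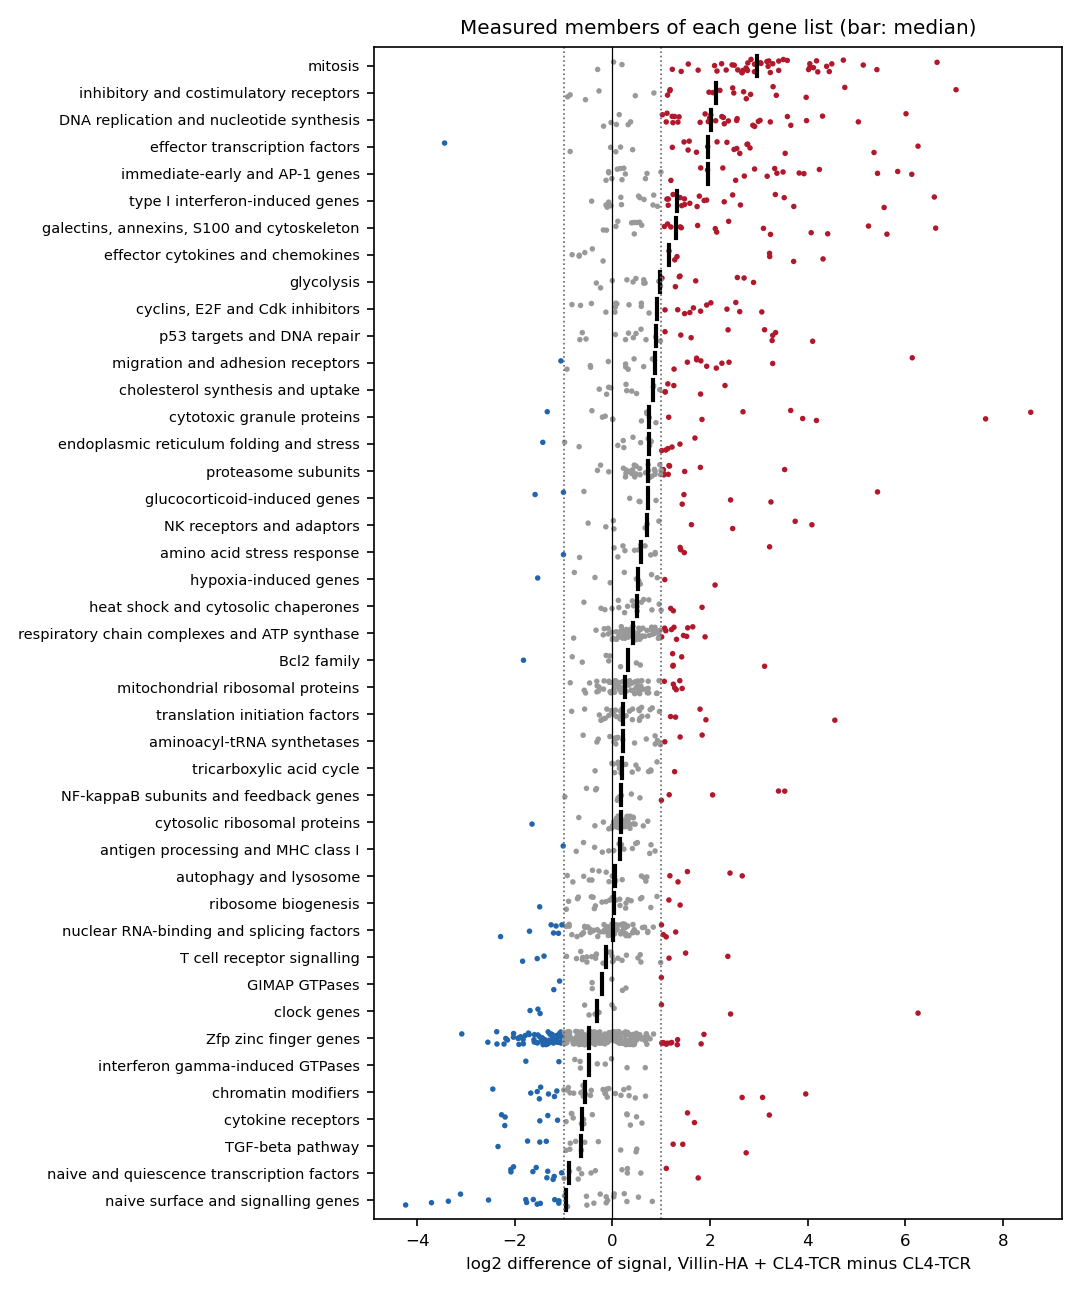
Log2 difference (x axis, Villin-HA + CL4-TCR minus CL4-TCR) of every measured member of each list, 1 point per gene, with red points called higher, blue points called lower and a black bar at the list's median. Lists are ordered by median, from mitosis at 2.97 down to naive surface and signalling genes at -0.95.

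Killing genes were higher in part. Of 19 measured granule genes, 8 were called higher and 1 lower, against 11.9% and 9.53% of all genes, with a median log2 difference of 0.75. Gzmb and Gzma, the granzymes that cut proteins in the target cell, had the widest gaps, 14.6 against 12078.3 for Gzmb and 90.1 against 18076.8 for Gzma. Gzmk, a granzyme of memory-like CD8 T cells, had 21.4 and 575.1, at least 18.1-fold higher. Stx11, a syntaxin needed for granule release, had 44.6 and 665.3, a 14.9-fold difference. The granzyme inhibitors Serpinb6b (172.4 and 2169.2, 12.6-fold) and Serpinb9 (239.3 and 853.6, 3.57-fold), which protect the killer cell, were also higher. Prf1, the pore-forming perforin, was the member that went against the list, with 525 and 207.9, a 2.53-fold lower signal, and both of its probe sets lay at -1.12 or below. The granule proteins Nkg7 (0.70), Srgn (0.89) and Ctsw (-0.21) stayed inside 2-fold.

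Receptors shared with NK cells were also higher in part. Of 11 measured, 4 were higher and none lower. Klrk1, the activating receptor NKG2D, had signals of 14.4 and 425.1, at least 13.4-fold higher, and Klrc1, which encodes NKG2A, had 4.8 and 539.2, at least 17.0-fold higher. Klrd1, the CD94 chain that pairs with NKG2A, had 2275.7 and 2071.1, so this partner was at similar signal on both arrays. With the higher floor, 2 of 4 measured members were higher. Cd244a, a receptor of the SLAM family, was at least 5.52-fold higher, and the adaptor Tyrobp was 3.07-fold higher at low signals of 32.3 and 99.2.

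Of 13 measured effector cytokines and chemokines, 7 were higher, none was lower, and the median was 1.16. Ifng had signals of 4.2 and 631.5, at least 19.9-fold higher. Cxcl10, a chemokine induced by interferon, had 36.5 and 478.9, a 13.1-fold difference, and Ccl5 had 102.5 and 957.2, a 9.34-fold difference. Under the floor of 199.1, 3 of 5 measured members were higher. Xcl1, which draws cross-presenting dendritic cells, had 2.6 and 295.3, at least 9.32-fold higher. Il2, the growth factor of T cells, reached only 79.3, against 26.5, and Tnf reached 104.2, against 43. Ltb, a subunit of lymphotoxin made by resting lymphocytes, had 2581.8 and 1455.9, a log2 difference of -0.83.

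Inhibitory and costimulatory receptors were higher in 16 of 22 measured members and lower in none, with a median log2 difference of 2.13. Ctla4, the inhibitory rival of CD28, had signals of 16.9 and 4179.7, at least 132-fold higher. Cd160, an inhibitory and costimulatory receptor, had 74 and 2008.6, a 27.1-fold difference, with all 4 probe sets higher by log2 differences from 1.19 to 4.76. Icos, a costimulatory receptor of activated T cells, had 260.8 and 4088.4, a 15.7-fold difference over 3 probe sets from 2.14 to 3.97. Nt5e, the ectoenzyme CD73 that makes adenosine, was at least 10.3-fold higher. Receptors of chronically stimulated cells were among the rest: Lag3 was at least 9.80-fold higher, Havcr2 at least 4.60-fold, and Pdcd1 had 53.6 and 358.9. Another 4 members leaned the other way inside 2-fold, namely Cd226 (-0.92), Vsir (-0.87), Cd27 (-0.55) and Btla (-0.28). Scaling the arrays to the same median left 13 higher and put 2 lower. At the higher floor, 6 of 17 measured members were higher, the median was 0.78, and Pdcd1 (0.85), Nt5e (0.71) and Lag3 (0.64) fell inside 2-fold, while Havcr2 was below the floor on both arrays.

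Receptors of migration and adhesion were higher in 11 of 23 and lower in 1. Rgs1, a brake on chemokine receptor signalling, had signals of 35.7 and 2526.1, a 70.8-fold difference, and Rgs2 had 385.6 and 2019.5, a 5.24-fold difference over 3 probe sets that were all higher. Chemokine receptors of inflamed tissue were higher: Ccr2 was at least 9.74-fold, Cxcr6 4.73-fold and Cxcr3 3.51-fold higher. Itgae, the integrin chain CD103 that binds epithelial cadherin, had 594.6 and 2600.3, a 4.37-fold difference with both probe sets above 2-fold. S1pr1, which draws T cells out of lymph nodes, was the member called lower, with 338.4 and 162.7, while Cd69, which holds it inside the cell, had 950.4 and 3142.1. Ccr7 (0.44), the entry receptor of lymph nodes, and the gut integrin chain Itgb7 (0.32) were not called. Ccr9, the gut-homing chemokine receptor, cannot be given a direction. Its chosen probe set had 2975.5 and 5244.7, a log2 difference of 0.82, and its 5 probe sets ran from -1.83 to 1.66.

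Cytokine receptors moved both ways, with 6 of 22 lower (27.3%) and 3 higher (13.6%), against 9.53% and 11.9% of all genes. The share called higher thus lay near that of all genes, and the list median was -0.61. The higher ones were those of interleukin 2 and interleukin 18: Il2ra had signals of 12.3 and 294.4, at least 9.29-fold higher, Il18rap had 129.4 and 414.9, and Il2rb had 82.4 and 239.3. Il18r1, the ligand-binding partner of Il18rap, went in the other direction, with 927.5 and 201.9, a 4.59-fold lower signal. Il6st, the gp130 chain used by interleukin 6 and interleukin 27, had 1549.7 and 335.6, 4.62-fold lower, and Il27ra, which pairs with it, had 2004.8 and 800.1, 2.51-fold lower. Il21r was 2.18-fold lower at signals of 186.3 and 85.4. Ifnar2, a chain of the type I interferon receptor, was 4.83-fold lower by its chosen probe set, although its 3 probe sets ran from -2.27 to 0.28. Il7r, the survival receptor of naive and memory cells, had 5515.3 and 3676.9, a log2 difference of -0.58. With the arrays scaled to the same median, 10 were lower and 3 higher, beside 1702 lower and 1050 higher of all 11971 measured genes. With the higher floor, 4 of 16 were lower and 1 higher, and Il2ra (0.56), Il2rb (0.27) and Ifnar2 (-0.68) were not called.

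Transcription factors of effector cells were higher in 17 of 23 and lower in 1, with a median log2 difference of 1.95. Bhlhe40, which supports cytokine production, had signals of 4.2 and 2435.4, at least 76.8-fold higher. Tox2, a factor related to TOX, had 60.7 and 2495.1, a 41.1-fold difference by this probe set, while its other probe set lay at 0.84. Zbtb32, a repressor of the cytokine response, was at least 11.6-fold higher, although its other probe set lay at 0.12, and Prdm1, which encodes the effector factor Blimp-1, was at least 6.77-fold higher. Ikzf2, which encodes Helios, had 360.7 and 2029.7, a 5.63-fold difference with both probe sets higher. Hif1a, the oxygen-sensitive factor, had 1725.9 and 5054.7, and its 4 probe sets all passed 2-fold. The T-box factors went opposite ways. Tbx21, which encodes T-bet, had 66.5 and 257.2, a 3.87-fold higher signal, and Eomes had 992.6 and 91.4, a 10.9-fold lower signal, with probe sets at -3.44 and -4.34. Tox (-0.04) and Runx3 (-0.87) were not called. Under the floor of 199.1, 7 of 19 were higher and the median was 0.58, and Zbtb32 (0.89), Tbx21 (0.37) and Prdm1 (0.11) were no longer called.

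Transcription factors of naive and quiescent cells showed the reverse balance, with 10 of 23 lower and 2 higher, and a median of -0.88. Klf7 had signals of 669.2 and 216.1, a 3.10-fold lower signal, and all 4 of its probe sets lay between -1.63 and -1.85. Lef1, a partner of the Wnt pathway in naive T cells, had 1552.8 and 611.6, 2.54-fold lower over 2 probe sets. Sox4 was 4.23-fold lower, and Klf3 4.24-fold and Bach2 4.08-fold lower by their chosen probe sets, with another probe set of each of Klf3 and Bach2 above 0. Bcl11b (-1.19) and Satb1 (-1.22), organisers of the T cell programme, were called lower although their probe sets straddled 0. Slfn2 (661.7 and 2237.4, 3.38-fold) and Myb (2.15-fold) were the members called higher. Klf2 (-0.88) and Foxo1 (-0.99), which maintain lymph node homing, lay just inside 2-fold.

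Among 28 surface and signalling genes of naive CD8 T cells, 13 were lower and none higher, with a median of -0.95. Ramp1, which joins Calcrl to form the receptor of the neuropeptide CGRP, had signals of 1757.9 and 93.1, an 18.9-fold lower signal, and Calcrl itself had 633 and 73.1, 8.66-fold lower. Both chains of that receptor were thus lower. Sema4a, a semaphorin of lymphocytes, had 1512 and 115.6, 13.1-fold lower, with both probe sets below -3. Atp1b1, a chain of the sodium pump, had 2298.1 and 223.2, 10.3-fold lower over 5 probe sets from -3.36 to -0.62. Igfbp4, a binding protein of insulin-like growth factors, had 4167.1 and 716.5, 5.82-fold lower, and all 5 measured probe sets passed 2-fold, the lowest at -2.81. The list also held genes without a call, among them Dapl1 (-0.25) and Dgka (-0.52), so the naive genes were not lower as a whole.

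**Figure D3:**
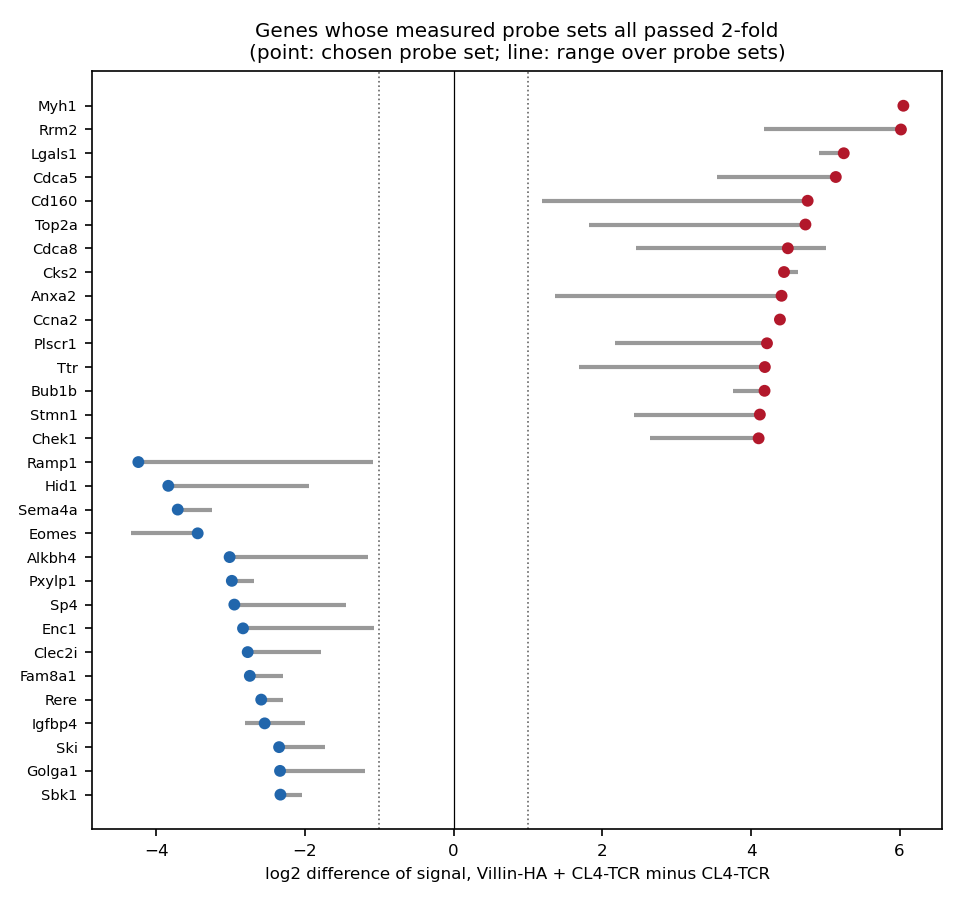
Log2 difference (x axis, Villin-HA + CL4-TCR minus CL4-TCR) of the 15 highest and 15 lowest genes whose measured probe sets all passed 2-fold in the same direction, with a point for the chosen probe set and a line for the range over probe sets. Chosen probe sets run from 6.05 (Myh1) to -4.24 (Ramp1).

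Immediate-early genes, which are transcribed within minutes of a stimulus, were higher in 17 of 29 and lower in none, with a median log2 difference of 1.95. At the higher floor, 13 of 26 were higher and the median was 1.08. Fos had signals of 64.8 and 4555.4, a 70.3-fold difference, and its partner Jun had 27.9 and 450, at least 14.2-fold higher with both probe sets higher. Phosphatases that switch off MAP kinases differed among themselves. Dusp1 had 60.1 and 2596.4 (43.2-fold), Dusp4 4.6 and 599.5 (at least 18.9-fold) and Dusp5 26.9 and 357.7 (at least 11.3-fold). Of the others in the list, Dusp2 lay just inside 2-fold at a log2 difference of 0.99, and Dusp10 (0.10) and Dusp6 (-0.08) were not called. Dusp7, which the list does not hold, was 3.57-fold lower. The nuclear receptor Nr4a1, a reporter of T cell receptor signalling, had 106.8 and 1104.8, a 10.3-fold difference. Klf6 had 255.6 and 1471.1, and its 5 probe sets all lay at 1.82 or above. The Egr factors, also targets of receptor signalling, were not called. Egr1 had 1156 and 1388.5, Egr2 217.3 and 206.1, and Egr3 329.4 and 538.1. Myc, also not called, had 502.2 and 458.3. The AP-1 motif TGANTCA was in a promoter of 0 of 24 matched genes of this list, against 7.82% of all genes. The cyclic AMP element TGACGTCA was in 3 of 24 (against 1.77%). In a 250-base window, these letters say nothing of enhancers.

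In the NF-kappaB group, 5 of 15 genes were higher and none lower. Rel, the subunit c-Rel of lymphocytes, had signals of 46.6 and 538.8, an 11.6-fold difference. Tnfaip3, the feedback inhibitor A20, had 778.4 and 8236.5, a 10.6-fold difference with probe sets at 3.29 and 3.40. Nfkb2 was 4.15-fold higher and Nfkbiz 2.24-fold higher. Rela (-0.53) and Nfkbid (-0.98), an atypical inhibitor, were not called. The list median of 0.18 became -0.02 when the arrays were scaled to the same median, with 3 higher and 1 lower.

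Genes induced by type I interferon were higher in 21 of 34 measured members and lower in none, with a median log2 difference of 1.31. Ifitm1 and Ifitm3, membrane proteins that block virus entry, were near the floor in CL4-TCR and bright in Villin-HA + CL4-TCR, at 18.9 against 3069.5 for Ifitm1 and 41.4 against 1964.7 for Ifitm3. Ifi27l2a had 294.8 and 3876.7, a 13.1-fold difference, and Ifit3 had 54.1 and 620.6, an 11.5-fold difference. The RNA sensors Dhx58 (67.2 and 370.6, 5.51-fold) and Ifih1 (406.4 and 1549.4, 3.81-fold) were higher, as was Usp18, the negative regulator of the interferon receptor, at 3.33-fold. Other members known to respond to the same signal did not differ by 2-fold: Ifit2 had 343.4 and 325.3, Parp14 1139.9 and 1040, and Irf9, a subunit of the factor that binds the response element, 649.6 and 603.1. Within the Ifit family, Ifit1 was 2.78-fold higher, so the range ran from 11.5-fold in Ifit3 to no call in Ifit2. At the higher floor, 13 of 27 were higher, and Dhx58 (0.90), Usp18 (0.69), Ifit1 (0.67) and Rsad2 (0.49) were not called.

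The GTPases and regulators induced by interferon gamma did not share this pattern, even though Ifng itself was higher. Of 10 measured, none was higher and 2 were lower, with a median of -0.48. Irgm2 had signals of 933.6 and 272.8, a 3.42-fold lower signal, and Iigp1 had 1117.5 and 522.2, 2.14-fold lower with both probe sets below -1. Igtp had 2409.8 and 2378, and Gbp2 had 2020.5 and 1281.7. The response element shown above was in a promoter of 7 of 8 matched genes of this list (87.5%). In the type I list it was in 9 of 23 matched genes (39.1%). Of 17 genes of antigen processing and MHC class I, none was higher and 1 was lower, Tapbpl, an editor of peptide loading, at 2.01-fold. B2m, the light chain of MHC class I, had 10521.5 and 11949. The median of that list, 0.15, changed sign to -0.06 when arrays were scaled to the same median.

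**Figure D4:**
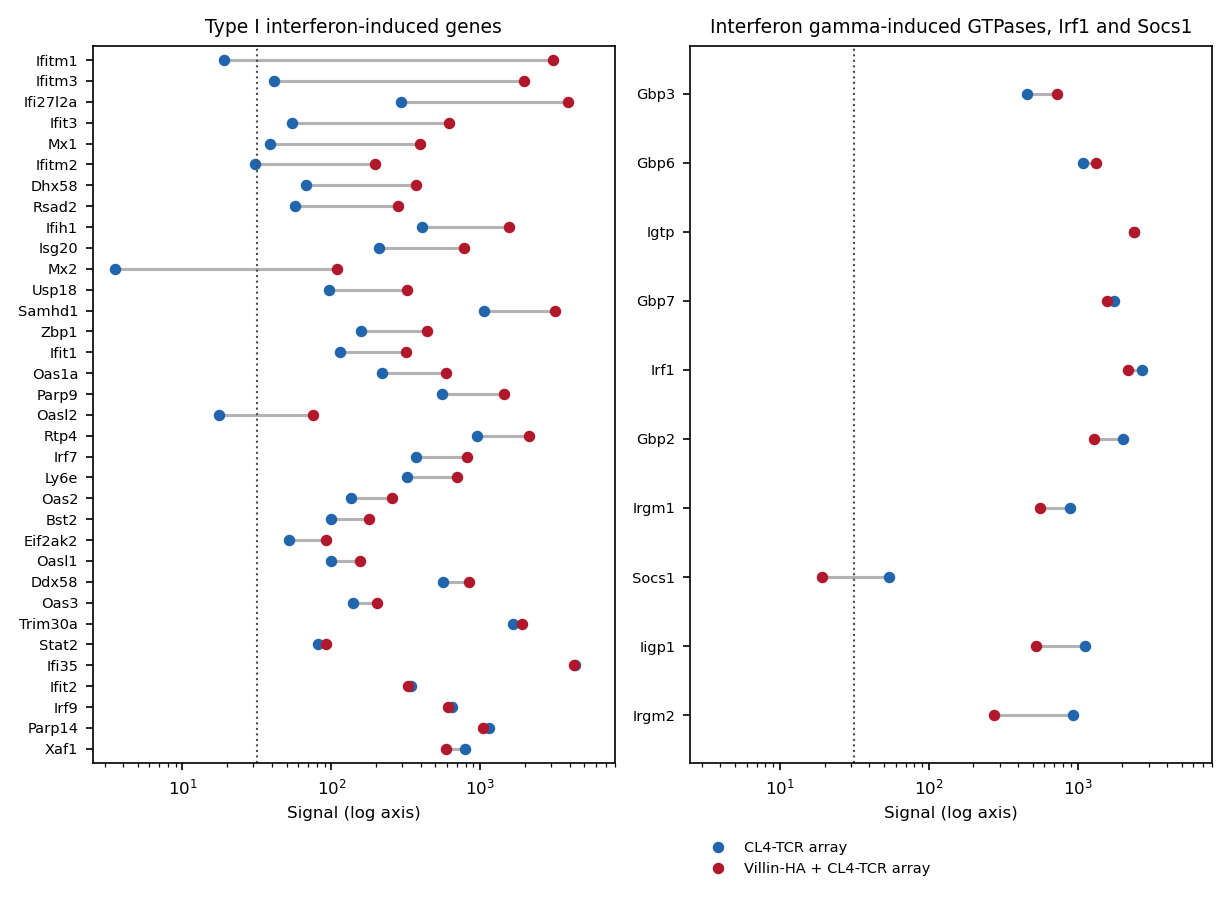
Signal (x axis, log scale, deposited units) of type I interferon-induced genes and of interferon gamma-induced GTPases and regulators, with 1 line per gene joining its points for CL4-TCR and Villin-HA + CL4-TCR. Of the first group 21 of 34 genes were called higher, and of the second 0 of 10.

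Galectins, annexins, S100 proteins and cytoskeletal genes, many of them known from activated and memory T cells, were higher in 16 of 26 and lower in none, with a median of 1.29. Lgals3, which encodes galectin-3, had signals of 11.4 and 3128.9, at least 98.7-fold higher, and Lgals1, galectin-1, had 379.9 and 14436.7, a 38-fold difference with probe sets at 4.92 and 5.25. S100a6, a calcium-binding protein, had 10.1 and 1565.4, at least 49.4-fold higher. Anxa2 had 97.6 and 2076.9 (21.3-fold), and Anxa1 27 and 533.6 (at least 16.8-fold). The actin-capping protein Capg was 8.55-fold higher, though its other probe set lay at 0.46. Coro1a (0.11) and Tagln2 (-0.12), also actin-binding, were not called. Of 13 members with several measured probe sets, 7 had all of them on the same side of 0. Probe sets of Anxa6 (-2.575 to 1.55) and S100a10 (-1.07 to 1.68) passed 2-fold both ways, so these genes have no single direction. Several genes of this list are also made by myeloid and stromal cells, whose markers are given further on.

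Metabolic genes leaned higher by smaller steps. List medians up to 0.65, here and below, are no larger than differences seen in the controls BioB, BioC, BioD and Cre. In glycolysis, 8 of 20 were higher, none was lower, and the median was 0.97. Tpi1, the triose phosphate isomerase, had signals of 304.4 and 2259.4, a 7.42-fold difference over 3 probe sets from 2.89 to 3.23. Hk2, the inducible hexokinase, had 75 and 442.3 (5.90-fold), and Pkm, pyruvate kinase, had 478.4 and 1561.1 (3.26-fold). Aldoc was at least 6.49-fold higher. Gapdh was also called, at 1.37 on the log2 scale by its 3′ probe set and 3.83 by its 5′ probe set, so its difference depended on the end of the transcript. The glucose transporters Slc2a1 (0.64) and Slc2a3 (-0.24) were not called. Of 12 genes induced by hypoxia, Bnip3 (4.30-fold) and Ankrd37 were higher, and Pdk1 was 2.89-fold lower, with all 4 probe sets below 0. The hypoxia shares, 16.7% higher and 8.33% lower, lay near the 11.9% and 9.53% of all genes.

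In the mitochondrion, 11 of 76 subunits of the respiratory chain and ATP synthase were higher and none was lower (median 0.42), a share of members near the 11.9% of all genes, and 7 of 68 were with the higher floor. They included Ndufa4 (219.2 and 817.1, 3.73-fold) and Uqcr10 (3.13-fold). Of 20 genes of the tricarboxylic acid cycle, 1 was higher, Idh3a, and of 76 mitochondrial ribosomal proteins, 6 were. The cytosolic ribosomal proteins differed little, with a median of 0.17 over 43 genes that became -0.03 with arrays scaled to the same median. Only Rpl12 was called among them, with 1234.7 and 393.9, a 3.13-fold lower signal from a single probe set.

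Protein handling genes were higher in part in the values as deposited. Of 37 proteasome subunits, 9 were higher (24.3%, against 11.9% of all genes), none was lower, and the median was 0.73. Under scaling to the same median 3 of 37 were higher, a share near that of all genes (1050 of 11971). Psmb7, a catalytic subunit, had signals of 158.2 and 1826.4, an 11.5-fold difference on 1 probe set, and Psmc1 had 261.7 and 912.5, a 3.49-fold difference. The other called subunits lay between 1.04 and 1.48. Folding enzymes of the endoplasmic reticulum were higher in 6 of 18 and lower in 1. They included Pdia6 (3.23-fold) and Hsp90b1 (2.61-fold), while the co-chaperone Dnajc3 was 2.69-fold lower, and 3 were higher under scaling to the same median. Of the amino acid stress genes, 4 of 17 were higher, led by the asparagine synthetase Asns (29.3 and 295.5, at least 9.32-fold) and the serine synthesis enzyme Psat1 (2.78-fold), and Ddit4, an inhibitor of mTOR, was 2.01-fold lower. Sterol synthesis genes were higher in 6 of 17, among them Cyp51 (4.95-fold) and Insig1 (3.50-fold), and 3 of them were under scaling to the same median and 1 of 8 with the higher floor, where Cyp51 had 0.39. Translation initiation factors (5 of 39 higher, 1 of them the Y-linked Eif2s3y), aminoacyl-tRNA synthetases (3 of 19) and ribosome biogenesis genes (2 higher and 1 lower of 26) lay close to the background. The highest member of the ribosome biogenesis list was Odc1, at 2.62-fold over 3 probe sets. It is a polyamine enzyme and not itself a ribosome factor, yet it is 1 of the 2 counted as higher.

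Zinc finger and chromatin genes leaned lower. Of 261 measured zinc finger genes named Zfp, 61 were lower and 11 higher, with a median log2 difference of -0.48, against 9.53% lower and 11.9% higher among all genes. Zfp946 had signals of 689.1 and 81, an 8.51-fold lower signal, and Zfp950 had 325.9 and 55.5, 5.87-fold lower. Zfp367, a factor known to follow the cell cycle, had 119.2 and 420.3, a 3.53-fold higher signal. Scaling to the same median gave 84 lower and 6 higher. With the higher floor, 16 of 107 were lower and 2 higher, and Zfp950 had -0.71.

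Chromatin modifiers leaned lower too. Of 38 measured, 8 were lower and 3 higher, with a median of -0.56. The lower ones included several enzymes. The remodeller Chd7 had signals of 997.1 and 182.2 (5.47-fold lower), the histone methyltransferase Kmt2c 1501 and 470.2 (3.19-fold), the demethylase Kdm5b 523.6 and 179.8 (2.91-fold) and the acetyltransferase Crebbp 1832.7 and 738.6 (2.48-fold, all 4 probe sets below 0). The higher ones were Hmgb2 (200 and 3116.2, 15.6-fold), Hmgb3 (8.44-fold), which bend DNA, and Ezh2 (332.8 and 2100.1, 6.31-fold), the methyltransferase of Polycomb complex 2, and all of these are known in dividing cells. The other core subunits of that complex, Eed (-0.12) and Suz12 (-0.14), were not called. Splicing factors had a median of 0.01, with 4 of 82 higher and 7 lower. Rbm38 was 4.90-fold and Rbm26 3.25-fold lower, the latter over 4 probe sets that were all below 0. With arrays scaled to the same median, 13 chromatin modifiers and 11 splicing factors were lower.

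Components of the TGF-beta pathway, which restrains T cells and induces CD103, were lower in 4 of 17 (23.5%) and higher in 3 (17.6%). Among all genes 9.53% were lower and 11.9% higher, and the list median was -0.64. Ski, a repressor of SMAD factors, had signals of 603 and 118.6, 5.08-fold lower, and Smad7, the feedback inhibitor, had 1356.2 and 406, 3.34-fold lower, each with both probe sets below -1. Smad4, the shared SMAD factor, was 2.56-fold lower. Tgfbr2, the receptor that binds the ligand, had 3962 and 1411.3, 2.81-fold lower by its bright probe set, while a dim one with signals of 32.7 and 67.8 lay at 1.05. The corepressor Tgif1 had 40.4 and 270, 6.68-fold higher. Under scaling to the same median, 7 were lower. Under the floor of 199.1, 4 of 14 were lower and none higher, and Tgif1 had 0.44.

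T cell receptor signalling genes had no common direction, with 3 of 30 higher and 3 lower and a median of -0.13. These shares, 10% each, lay near the 11.9% higher and 9.53% lower of all genes. The higher ones were the ubiquitin ligase Cblb (652.9 and 3363, 5.15-fold), the phosphatase Ptpn22 (2.83-fold) and Nfatc1 (2.23-fold). Nfatc1 had -0.71 on the log2 scale with arrays scaled to the same median, where another of its 5 probe sets was chosen. The lower ones were the adaptor Pag1 (1801.6 and 502.5, 3.59-fold), the kinase Txk (2.91-fold) and Cbl (2.64-fold). The Cbl proteins thus lay on opposite sides by their chosen probe sets, though the probe sets of each straddled 0. GIMAP proteins, which support the survival of naive T cells, were lower in 2 of 8 (25%, against 9.53% of all genes), Gimap5 (2.30-fold) and Gimap8 (2.12-fold). Gimap7 was 2.00-fold higher by 1 of its 2 probe sets, the other lying at -1.45.

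In the Bcl2 family, 5 of 14 were higher (35.7%) and 1 lower (7.14%), against 11.9% and 9.53% of all genes. The higher ones were of both kinds. Bcl2l1, the survival factor Bcl-xL, had 111.3 and 262.6 (2.36-fold, its only measured probe set). Of the proapoptotic members, Pmaip1, or NOXA, had signals of 29.7 and 275.2 (at least 8.68-fold), Bmf was 2.67-fold higher, and Bcl2l11, or BIM, had 1381.1 and 3246.5 (2.35-fold) with 5 probe sets from 0.92 to 1.57. Bik was 2.37-fold higher at low signals of 35.4 and 83.9, its other probe set lying at -0.35, while Bad (0.49), Bak1 (0.17), Bid (-0.08) and Bbc3 (-0.62) were not called. The survival factor Bcl2 had 952.3 and 269.1, 3.54-fold lower, although its 5 probe sets ran from -1.82 to 1.17, and Mcl1 had -0.82. At the higher floor, 1 of 7 family members was higher and 1 lower, and Pmaip1 (0.47) and Bcl2l1 (0.40) were not called. Of 22 autophagy and lysosome genes, 5 were higher (22.7%) and none lower, among them Gabarapl1 (6.32-fold) and the cathepsin Ctsz (5.31-fold). With the higher floor 3 of 20 were higher, and Gabarapl1 had 0.36.

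Genes of the circadian clock were split, with 3 of 12 higher and 3 lower (25% each), against 11.9% and 9.53% of all genes. Per1 had signals of 45.3 and 242.6, 5.36-fold higher. Dbp had 574.6 and 178.2 (3.22-fold lower), Cry1 393.7 and 136.6 (2.88-fold lower) and Nr1d2 904.2 and 323.4 (2.80-fold lower). The time of day at which tissues were taken is not in the labels. Glucocorticoid-induced genes were higher in 5 of 12 (41.7%) and lower in 2 (16.7%). Klf9 was 9.50-fold higher by 1 of its probe sets, Fkbp5 had 330.7 and 913 (2.76-fold, both probe sets higher), and the kinase gene Sgk1 had 3187.9 and 1062.1, 3.00-fold lower. With the higher floor, 1 of 6 clock genes was higher and 2 were lower, and Per1 (0.29) and Cry1 (-0.98) were not called, while 3 of 9 glucocorticoid-induced genes were higher and 2 lower. Dusp1 and Per1 belong to this list and to those above.

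Transcripts of other cell types differed between the arrays. Of 18 measured skeletal muscle genes, 17 were higher, and their summed signal was 507.2 in CL4-TCR and 7339.2 in Villin-HA + CL4-TCR. The muscle myosin Myh1 had 8.1 and 2100.1, and the muscle actin Acta1 had 23.7 and 1190.8. Neutrophil genes were higher in 6 of 9, with sums of 201.1 and 1976.9, led by S100a8 (9.5 and 738.7). Stromal genes were higher in 8 of 11 (sums 304.5 and 1532.8), led by the collagen Col1a2 (36.4 and 369.9). Adipocyte genes were higher in 2 of 3 (44.6 and 575.8). Macrophage genes were higher in 4 of 8 (289.4 and 1000.1) and dendritic cell genes in 4 of 7 (633.8 and 1774.9), the latter including Itgax, also known on activated CD8 T cells, at 38.9 and 430.7. Under the floor of 199.1, 4 of 10 muscle, 1 of 4 neutrophil and 2 of 4 dendritic cell genes were called. Only 2 stromal genes, 1 adipocyte gene and 1 macrophage gene were still measured there, and none of them was called. None of the 6 gut epithelium, 4 endothelium or 4 erythroid genes was called. Of the CD4 T cell genes, Cd4 lay below the floor on both arrays, and Foxp3, the factor of regulatory T cells, had 29.6 and 86.4. Of 5 B cell genes, Cd79b was called, with 110.5 and 233.1. None of the 4 measured plasma cell genes was called, but their summed signals were 4650.8 and 4096.2. Among them Ighm, an immunoglobulin heavy chain gene, had 3004.9 and 1913.1. Another of its probe sets had 1467.4 and 1768.3, and several lay below the floor on both arrays. Which cells gave the Ighm signal was not tested. The part of other cell types in the differences of galectins, S100 proteins, chemokines, interferon-induced and immediate-early genes was not tested either. A different number of cells of a type cannot be told apart from a different amount of RNA per cell.

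**Figure D5:**
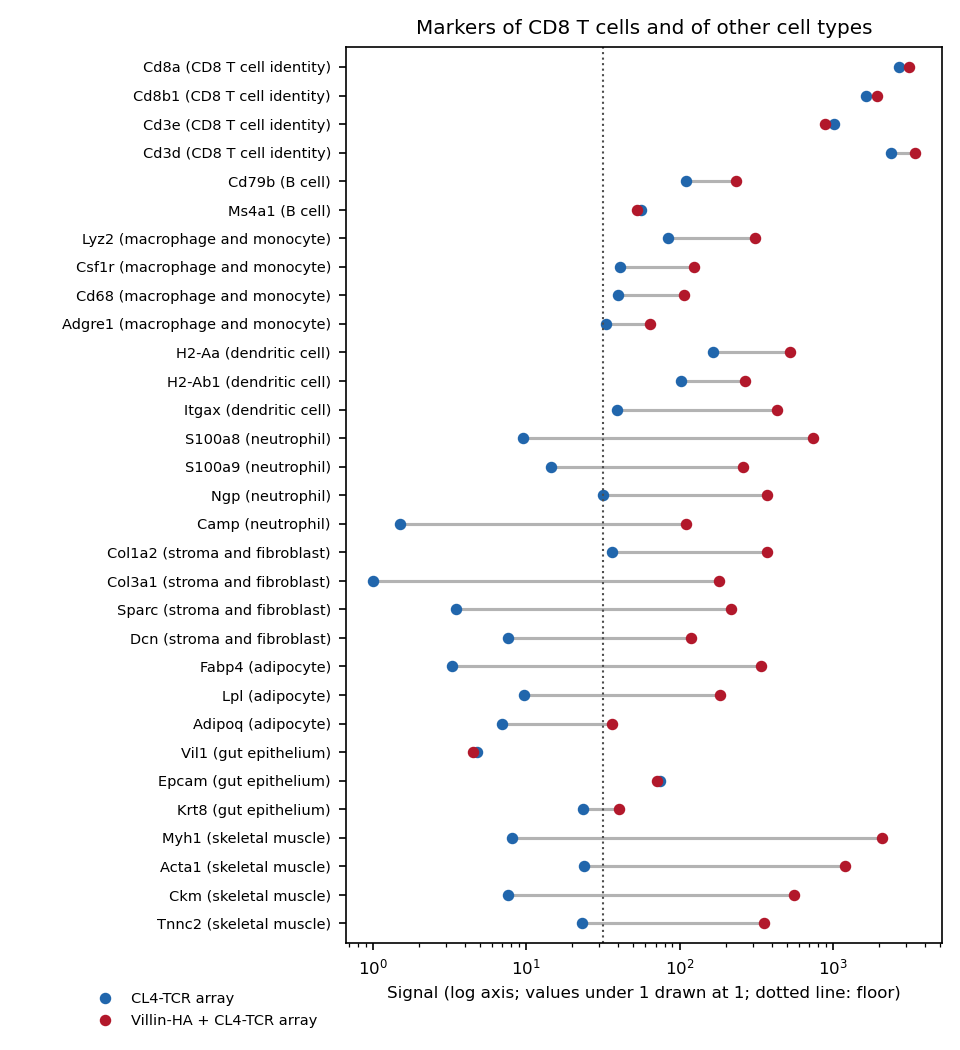
Signal (x axis, log scale, deposited units) of marker genes for CD8 T cells and other cell types, with a blue point for CL4-TCR, a red point for Villin-HA + CL4-TCR and a dotted line at the floor of 31.7. The CD8 T cell genes have similar signals on both arrays, while the muscle gene Myh1 goes from 8.1 to 2100.1 and the neutrophil gene S100a8 from 9.5 to 738.7.

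The arrays also differed in sex-linked transcripts. Xist, the RNA that silences an X chromosome in female cells, had signals of 5442.5 and 1339, 4.06-fold lower, and all 3 of its probe sets lay below -1. The Y-linked genes Eif2s3y (13.4 and 746.9) and Kdm5d (0.8 and 135.9) were higher. A difference in the sex of the animals cannot be told apart from the group.

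Agreement between probe sets of the same gene was uneven. Of 5473 genes with 2 or more measured probe sets, 184 (3.36%) had every one of them 2-fold higher and 117 (2.14%) every one 2-fold lower. Among genes called higher that had several probe sets, 184 of 607 (30.3%) had all past 2-fold and 468 (77.1%) had all on the same side of 0. Among those called lower, the counts were 117 of 702 (16.7%) and 422 (60.1%). The difference between these shares was not tested. In 93 genes (1.70%), at least 1 probe set was 2-fold higher and another 2-fold lower. These included Samhd1, an antiviral enzyme counted above among the higher interferon-induced genes, with 5 probe sets from -1.30 to 3.06, the inhibitor of E proteins Id2, from -1.36 to 2.13, and the nuclear RNA Malat1, from -1.80 to 2.44. A single signal ratio does not give such genes a direction. Taken as the median over their measured probe sets, several genes named above lost their call. Among those higher, Cblb had a median log2 difference of 0.02, Rsad2 0.70, Brca1 0.70, Hsp90b1 0.74, Mcm2 0.77, Nfkbiz 0.82, Pdia6 0.89, Il2rb 0.97 and Idh3a 0.49. Among those lower, Tgfbr2 had -0.22, Pag1 -0.26, Ifnar2 -0.52, Kdm5b -0.65, Satb1 -0.67, Il6st -0.68, Dnajc3 -0.83 and Cbl -0.92. With arrays scaled to the same median, Nfkbiz (0.96), Cdkn1a (0.92), Mcm7 (0.90), Myb (0.90), Ankrd37 (0.87), Cd79b (0.87) and Gimap7 (0.80) fell short of 2-fold. Without probe sets that may match several transcripts, Tox2 (0.84), Atp1b1 (-0.62) and Dbp (-0.99) did. At the higher floor, the genes named above that lost a higher call and are not given with their lists were Cdkn3 (0.41), Ccr2 (0.63), Xcl1 (0.57), Dusp5 (0.85), Aldoc (0.05), Bnip3 (0.38), Uqcr10 (0.90), Asns (0.57), Col1a2 (0.89) and Cd79b (0.23), and those that lost a lower call were S1pr1 (-0.77) and Dusp7 (-0.25).

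The genes with the strongest shared direction were drawn from several of these groups. Beside proliferation genes, the 15 highest included Lgals1, Cd160, Anxa2 and Plscr1, a lipid scramblase induced by interferon, with signals of 20.2 and 588.9, at least 18.6-fold higher over 3 probe sets from 2.17 to 4.22. They also included Myh1 and Ttr, the transport protein transthyretin, which are not known as genes of T cells. The 15 lowest included Ramp1, Sema4a, Eomes, Igfbp4 and Ski. Hid1, a protein of the Golgi, had 452.8 and 22.6, at least 14.3-fold lower, Alkbh4, a demethylase, had 1069.3 and 132.6 (8.06-fold, 3 probe sets), and the transcriptional regulator Rere had 1277.5 and 212.7 (6.01-fold).

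The rate of calls varied with signal. It was 11.3% among genes whose higher value lay between 31.7 and 100, reached 28.7% between 100 and 300, and was 17.1% above 3000. At the low end the floor itself limits calls, since a gene needs a higher value of at least 2 times 31.7 to pass 2-fold. Probe sets without a single gene symbol, which name no gene here, had the opposite balance to named ones. Of those measured, 7.26% were higher and 12.9% lower, against 11.4% and 10.4% of those with 1 symbol. Over all 26368 measured probe sets, 10.7% were higher and 10.8% lower.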

How the data were processed

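Gene expression in CD8 T cells was measured on 1-colour arrays. Each array was deposited as a column of intensity values from MAS5 (per the submitters' processing notes), and the version is not given in the sources used here. MAS5 reduces each probe set to a linear signal and scales every array to a common level, so a shift shared by most transcripts does not appear. Detection calls and background settings were not used here. Of 45101 probe sets, 34958 had 1 gene symbol in the platform annotation, 932 several and 9211 none. Symbols of 34754 were updated by gene identifier to the RefSeq table of GRCm38.p6, and 204 kept the older name, giving 18194 genes.

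Values under the floor of 31.7 were raised to it, and log2 differences were taken as Villin-HA + CL4-TCR minus CL4-TCR, with python 3.11.15, pandas 2.3.3 and numpy 2.4.6. No test was run, since each group has 1 array, and that number limits the precision. The calculation was tested on simulated data. Alternatives were other floors, other scalings, the median over probe sets, and leaving out probe sets that can match several transcripts. The 60 gene lists and the genes in them were chosen with earlier results of these data known, and lists share genes. Named from each list were up to 4 members with the largest difference among those called, preferring members whose probe sets lie on 1 side of 0, the member against the list, and the 15 highest and 15 lowest genes with every probe set past 2-fold. Other named genes were chosen after their values were seen.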

Additional observations from a re-analysis of the deposited data

How the results depend on the processing

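The total of calls moved most with the higher floor, and the balance between higher and lower moved most with scaling to the same median. With the floor at the 65th percentile of all values (68.6), 943 genes were higher, and 1729 probe sets were higher. With the floor at the 80th percentile (199.1), 474 genes were higher and 538 lower, 840 probe sets were higher and 887 lower, and 102 genes had every probe set past 2-fold, against 301. Leaving out probe sets whose IDs mark shared or similar sequence (_s_at, _x_at and _a_at) gave 171, since fewer genes then have several probe sets. Under the higher floor, the median of the sex-linked list was -0.058, against 1.40. Among named genes, Nfatc1 had a log2 difference of -0.71 with arrays scaled to the same median, Gimap7 -0.23 by the median over its probe sets, and Id2 -1.36 without the _s_at, _x_at and _a_at probe sets. Other named genes that were called kept their sign in each alternative in which they were measured. Of 205 named genes called, 38 fell inside 2-fold with the floor at 199.1 and 21 were no longer measured there. The counts inside 2-fold were 9 with the floor at 68.6 (Bik, Bmf, Ccne2, E2f7, Foxp3, Il2, Kdm5d, Tnf and Tyrobp), 19 by the median over probe sets, 7 with scaling to the same median, 5 without those probe sets and 4 with quantile normalization. Without the _s_at, _x_at and _a_at probe sets, 34 of the 205 were no longer measured. Among them were Gzma, Lgals1, Anxa2, S100a6, Klrk1, Igfbp4, Myh1 and Acta1. Scaling to the same median gave 1050 genes higher and 1702 lower, quantile normalization 1426 and 1144, and the median over probe sets 1268 and 854. The pooled probe set SD lay between 0.47 and 0.69. Small list medians changed sign under scaling to the same median, among them splicing factors (-0.19), ribosome biogenesis (-0.17), autophagy (-0.15) and the tricarboxylic acid cycle (-0.01). The probe set counts have no value under the alternatives that act on genes, which were not run for them. No paired analysis was possible because each group holds 1 array.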

Other observations

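Genes of secretory epithelia and other tissues that no list held stood out when all genes were ranked, and were chosen after their values were seen. Each has 3 signals, first from CL4-TCR, then from VILLIN-HA/CL4-TCR, and last from Villin-HA + CL4-TCR. Lipf, a gastric lipase, had signals of 5.1, 0.8 and 653.2. Bpifb1 and Bpifa1, secreted proteins of the airway and mouth, had 61.2, 31.5 and 839.8, and 19.3, 2.5 and 310.7. Dmbt1, a mucosal scavenger receptor, had 1.8, 6.7 and 315.1. Ttr had 1.1, 13.1 and 577.3, and Esm1, a proteoglycan of endothelium, had 5.8, 3 and 501.9. The muscle genes Myh1 and Ckm were at 5.1 and 11 in VILLIN-HA/CL4-TCR, below the floor, and at 2100.1 and 554.6 in Villin-HA + CL4-TCR. Alb, the liver albumin gene, lay below the floor on all 3 arrays, at 20.8, 29.4 and 10.7. Apart from Alb, each of these genes passed the floor in Villin-HA + CL4-TCR, and Bpifb1 passed it in CL4-TCR too. Their source was not tested.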
